A study of Mus musculus with 18 samples.

Results

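The genes described here code for the endocytic receptor complex of the visceral endoderm, the embryonic epithelium that takes up maternal protein before the placenta works. They are Lrp2 (megalin), Cubn (cubilin), Amn (amnionless) and Dab2 (disabled homolog 2), found by mouse Entrez gene identifier, and they make up 4 of the 36528 genes in the deposited files. All 4 passed the filter on low counts, which left 16875 genes for testing. They were chosen by the measured levels of megalin and cubilin, which differed between the study's lines and after BAP1 loss. Those values span all 6 groups, so every comparison of these 4 genes is given as a description, with its standard error and no test. Tests are given for other genes alone.

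The RNA came from mouse embryonic stem cells, in 6 groups of 3 libraries. BAP1 knockout cells (cKO_D4_4OHT) had received 100 nM 4-hydroxytamoxifen for 4 days, which switches on Cre recombination, and the untreated knockout line (cKO_D4) was their control. C91A mutant cells (C91A_D4_4OHT) carry a knock-in of BAP1 without its catalytic cysteine and had received the same drug, and the untreated C91A line (C91A_D4) was their control. The double knockout cells (dKO_D4_4OHT), also given the drug by their group name, lack RNF2 and BAP1, and the wild type (WT_D4) carries normal BAP1. All cells also received emricasan, a caspase inhibitor that blocks cell death. Drug, Cre activity and BAP1 loss cannot be told apart in the comparison of a treated line with its untreated control. The sources used here do not say whether wild type cells had the drug, whether a line is 1 clone, or whether the 3 libraries of a group came from separate cultures. The p-values of other genes measure the spread between these libraries, which may be technical.

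Histone H2A is tagged with ubiquitin by a Polycomb repressive complex whose catalytic subunit is RNF2, and BAP1 is the enzyme that takes this tag off again. Megalin is a very large receptor of the LDL receptor family that spans the membrane and carries many ligands into coated pits. Cubilin has no membrane-spanning part of its own: it is brought to the cell surface and held there by amnionless, and it also binds megalin. Dab2 is an adaptor that links the tail of megalin to the clathrin coat. In the mouse this uptake system is prominent in visceral endoderm, yolk sac and kidney proximal tubule.

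The cells expressed the stem cell gene Pou5f1, and the secreted products and the regulator that best define visceral endoderm were at or near 0. Pou5f1 averaged 663.5 to 1093 counts per M (mega) counts of the library (CPM) over the 6 groups, while Ttr, a secretory product of visceral endoderm, had 0 counts in all 18 libraries, which allows up to 0.13 to 0.37 CPM depending on depth. Afp had at most 5 counts and Hnf4a at most 7 counts in any library. Other genes of the visceral endoderm list were well expressed, among them, chosen after their values were seen, Lefty1 at group means of 113.6 to 236.0 CPM and Cldn6 at 102.1 to 349.2 CPM. The name visceral endoderm here describes where the 4 genes are best known. Library totals ran from 8.11 to 23.0 M (mega) counts. Bap1 lay between 147.1 and 151.4 CPM in knockout libraries, against 167.0 to 169.9 CPM in those of the untreated line. It lay between 162.8 and 165.8 CPM in C91A mutant libraries, against 84.7 to 93.7 CPM in untreated C91A libraries. It lay between 139.1 and 160.6 CPM in double knockout libraries, against 170.6 to 182.5 CPM in wild type, and Rnf2 between 70.5 and 77.3 CPM, against 107.1 to 122.1 CPM. The untreated C91A line thus also held less Bap1 transcript than wild type, at a log2 difference of -1.01 (SE 0.05). Counts over a whole gene check a deletion or a point change only in part.

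Lrp2 lies at chr2:69424335-69586029 and Cubn at chr2:13276338-13491876, 55.9 Mb apart and both on the minus strand. Amn lies at chr12:111271096-111276426 and Dab2 at chr15:6299788-6440715, both on the plus strand (RefSeq, GRCm38.p6). RefSeq transcripts without a protein overlap Cubn, Amn and Dab2. Of these Gm16311, at Dab2, had 0 counts in all libraries and the others were not among the genes with deposited counts. The sources used here do not say whether counting took account of the strand. The promoter windows of the receptor pair are shown because their transcripts took different courses below, and CG dinucleotides are in capitals. Whether the CG content bears on those courses was not tested. Each runs from 250 bases before to 50 bases after the annotated start, 5′ to 3′ on the gene's strand, at chr2:69585980-69586279 for Lrp2 and chr2:13491827-13492126 for Cubn. The window of the distal Dab2 start, at chr15:6299539-6299838, has its GATA matches in capitals, since GATA factors direct primitive endoderm.
Lrp2: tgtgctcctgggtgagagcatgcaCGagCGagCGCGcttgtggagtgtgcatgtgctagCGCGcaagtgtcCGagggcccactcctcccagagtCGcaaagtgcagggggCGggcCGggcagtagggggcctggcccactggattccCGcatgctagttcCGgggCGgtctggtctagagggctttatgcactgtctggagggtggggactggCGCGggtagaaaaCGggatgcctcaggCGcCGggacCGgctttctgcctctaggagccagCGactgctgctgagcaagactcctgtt
Cubn: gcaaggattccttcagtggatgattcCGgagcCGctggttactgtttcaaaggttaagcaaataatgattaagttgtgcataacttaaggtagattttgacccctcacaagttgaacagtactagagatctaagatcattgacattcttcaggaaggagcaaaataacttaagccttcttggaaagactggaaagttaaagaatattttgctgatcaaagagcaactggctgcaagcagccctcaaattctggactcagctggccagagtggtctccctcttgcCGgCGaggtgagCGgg
Dab2: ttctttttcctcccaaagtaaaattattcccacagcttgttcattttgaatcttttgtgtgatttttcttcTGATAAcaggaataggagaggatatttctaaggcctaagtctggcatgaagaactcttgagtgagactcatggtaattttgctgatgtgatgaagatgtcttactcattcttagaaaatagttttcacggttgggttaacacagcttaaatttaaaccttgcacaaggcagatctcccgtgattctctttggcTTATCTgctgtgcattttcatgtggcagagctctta
The Lrp2 window held 20 CG dinucleotides at 65.0% G and C, and 73.5% of all 32851 mouse promoter windows held fewer. The Cubn window held 5 CG dinucleotides at 44.3% G and C, and 38.0% of all windows held fewer. The median window held 7 CG dinucleotides at 52.7% G and C. The Amn window held 15 CG dinucleotides, the distal Dab2 window 2, and the window of a second Dab2 start at chr15:6386498-6386797 held 19. GATA letters (GATA with A or T before it and A or G after it, on either strand) occurred in the distal Dab2 window alone of these 5, as TGATAA 179 bases upstream and TTATCT 14 bases downstream of the start. They occurred in 29.8% of all windows. The HNF1 letters GTTAAT occurred 65 bases upstream of the second Dab2 start and in 7.1% of all windows. A match is a run of letters and not a shown binding site.

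Lrp2, the membrane-spanning receptor of the set, was high in both lines once the drug had been given. It had 219.4, 212.2 and 203.4 CPM in BAP1 knockout libraries, against 65.3, 81.4 and 74.4 CPM in the untreated knockout line. The C91A mutant libraries held 269.6, 250.7 and 283.9 CPM, against 79.3, 95.3 and 83.1 CPM in the untreated C91A line. The double knockout libraries held 91.5, 96.1 and 93.0 CPM, against 105.9, 107.1 and 102.7 CPM in wild type. Every library of either treated BAP1 line stood above every library of the 4 other groups, and none of the 3 pairs of groups overlapped. The log2 fold change was 1.52 (SE 0.06), or 2.87-fold, in the knockout and 1.64 (SE 0.06), or 3.11-fold, in the C91A mutant. By size these stood at places 322 and 234 from the highest of 16875 genes. In bulk RNA a change in the share of cells that express a gene and a change in RNA per cell cannot be told apart.

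**Figure D1:**
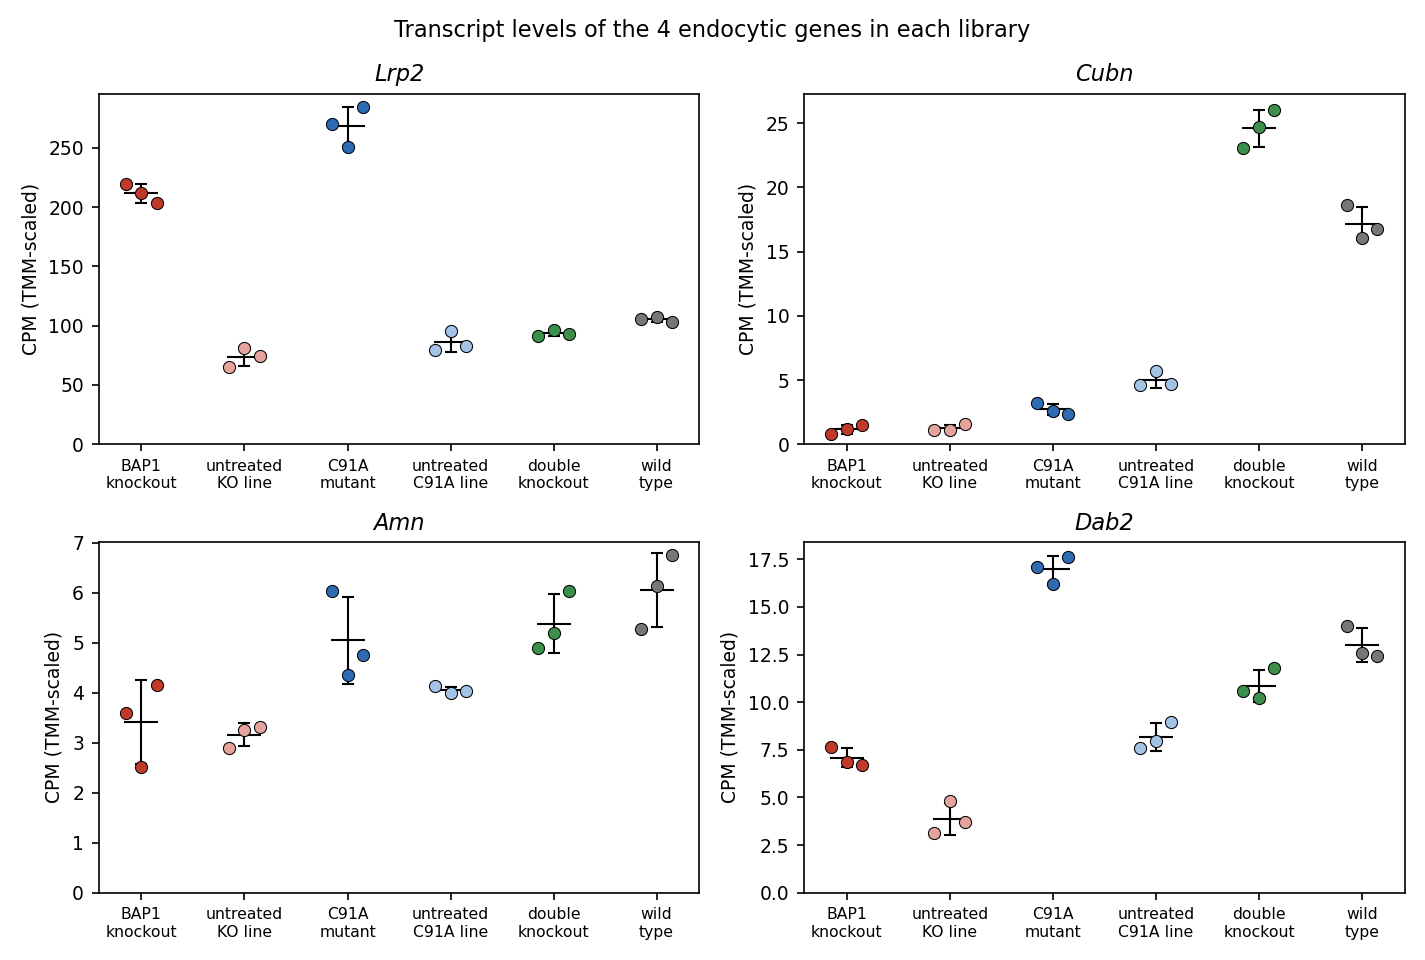
CPM of Lrp2, Cubn, Amn and Dab2 (vertical axes, each from 0) in the 3 libraries of each of the 6 groups (points), with mean and SD (bars). Lrp2 reached 203.4 to 283.9 CPM in BAP1 knockout and C91A mutant libraries, and Cubn reached 23.1 to 26.0 CPM in double knockout libraries.

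Cubn, the partner that binds vitamin B12 with intrinsic factor, albumin and transferrin, followed another order. It had 0.81, 1.19 and 1.5 CPM in BAP1 knockout libraries, against 1.1, 1.12 and 1.58 CPM in the untreated knockout line. The C91A mutant libraries held 3.19, 2.59 and 2.35 CPM, against 4.61, 5.69 and 4.69 CPM in the untreated C91A line. The double knockout libraries held 23.1, 24.7 and 26.0 CPM, against 18.6, 16.1 and 16.8 CPM in wild type. The knockout and its untreated line overlapped and lay lowest, both C91A groups lay between, and the double knockout lay highest with no overlap with wild type. The log2 fold change was -0.04 (SE 0.28) in the knockout and -0.92 (SE 0.17) in the C91A mutant. The knockout value rests on 9, 9 and 25 counts in the treated libraries and is -0.37 without knockout replicate 3. Both untreated lines lay below wild type. The log2 difference from wild type was -3.77 (SE 0.15) in the untreated knockout line, 13.6-fold lower and place 7 from the lowest of 16875 genes. It was -1.76 (SE 0.12) in the untreated C91A line, 3.38-fold lower and place 56 from the lowest.

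Amn, the membrane anchor of cubilin, varied least by group mean. It had 3.6, 2.51 and 4.15 CPM in BAP1 knockout libraries, against 2.9, 3.26 and 3.32 CPM in the untreated knockout line. The C91A mutant libraries held 6.03, 4.36 and 4.76 CPM, against 4.13, 3.99 and 4.03 CPM in the untreated C91A line. The double knockout libraries held 4.9, 5.2 and 6.04 CPM, against 5.28, 6.14 and 6.76 CPM in wild type. The knockout overlapped its untreated line and the double knockout overlapped wild type, while the 3 C91A mutant libraries lay just above the 3 of the untreated C91A line. The log2 fold change was 0.18 (SE 0.19) in the knockout and 0.31 (SE 0.16) in the C91A mutant. Against wild type it was -0.95 (SE 0.16) in the untreated knockout line and -0.59 (SE 0.15) in the untreated C91A line.

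Dab2, the clathrin adaptor, stood higher in both treated lines than in their untreated controls. It had 7.65, 6.87 and 6.73 CPM in BAP1 knockout libraries, against 3.12, 4.8 and 3.74 CPM in the untreated knockout line. The C91A mutant libraries held 17.1, 16.2 and 17.6 CPM, against 7.59, 7.94 and 8.98 CPM in the untreated C91A line. The double knockout libraries held 10.6, 10.2 and 11.8 CPM, against 14.0, 12.6 and 12.4 CPM in wild type. None of these 3 pairs of groups overlapped, and the knockout overlapped the untreated C91A line. The log2 fold change was 0.86 (SE 0.15) in the knockout and 1.06 (SE 0.11) in the C91A mutant. Against wild type it was -1.74 (SE 0.12) in the untreated knockout line, 3.33-fold lower, and -0.67 (SE 0.11) in the untreated C91A line.

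Placed in order, Lrp2 ran from the C91A mutant through the knockout, wild type, double knockout and untreated C91A line to the untreated knockout line. The double knockout overlapped the untreated C91A line, which in turn overlapped the untreated knockout line. Cubn ran from the double knockout through wild type, untreated C91A line, C91A mutant and untreated knockout line to the knockout, with overlap at the last step alone. For Amn, wild type, double knockout and C91A mutant overlapped as neighbours at the top, and the untreated C91A line, knockout and untreated knockout line did so at the bottom. Dab2 ran from the C91A mutant through wild type, double knockout, untreated C91A line and knockout to the untreated knockout line. In the untreated knockout line all 4 genes, and in the untreated C91A line all 4 genes, lay below wild type with no overlap, where the background of genes lying below without overlap was 25.4% and 19.3%. In the knockout 2 of 4 genes did not overlap the untreated line, against 66.3% of all genes, and in the C91A mutant 4 of 4 did not, against 58.6%. These comparisons were part of how the genes were chosen, so nothing is read from those counts.

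The size of the response was also set side by side between the lines, as a description. The knockout effect minus the C91A effect was -0.11 (SE 0.09) on the log2 scale for Lrp2, -0.13 (SE 0.25) for Amn and -0.2 (SE 0.19) for Dab2. For Cubn it was 0.87 (SE 0.33), or 0.54 without knockout replicate 3. Of all genes tested, 25.9% differed between the effects.

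The double knockout was also set against the BAP1 knockout. It has no untreated control of its own among the 6 groups, so loss of RNF2 and differences between lines cannot be told apart, and for Cubn the untreated lines already lay apart from wild type by -3.77 and -1.76 on the log2 scale. The knockout libraries are shared with the comparisons above. Lrp2 stood lower in the double knockout, at 93.5 ± 2.31 CPM, against 211.7 ± 8.03 CPM in the knockout (SD, n = 3 each), a log2 fold change of -1.18 (SE 0.06). Cubn stood higher, at 24.6 ± 1.46 CPM, against 1.17 ± 0.347 CPM in the knockout. Its log2 fold change was 4.34 (SE 0.17), or 20.2-fold, the widest gap of Cubn in the 6 comparisons. The receptor pair thus differed in opposite directions. Amn averaged 5.38 ± 0.593 CPM in the double knockout, against 3.42 ± 0.835 CPM in the knockout, a log2 fold change of 0.6 (SE 0.18). Dab2 averaged 10.9 ± 0.817 CPM in the double knockout, against 7.08 ± 0.494 CPM in the knockout, a log2 fold change of 0.63 (SE 0.13). The groups did not overlap for any of the 4 genes, 3 of them higher and 1 lower, nor for 65.3% of all genes, and nothing is read from that count.

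**Figure D2:**
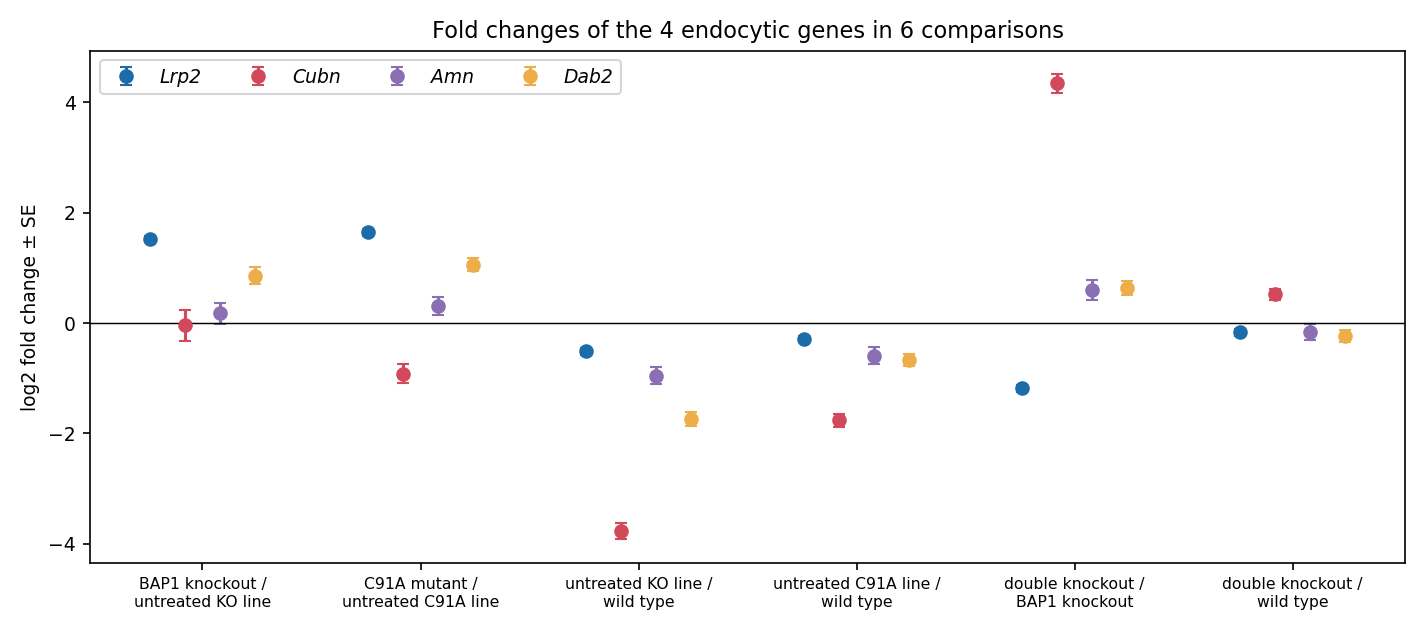
Log2 fold change with SE (vertical axis) of the 4 genes (colours) in 6 comparisons (horizontal axis). All are a description, since the levels in these groups were used to choose the genes. Cubn stands at 4.34 and Lrp2 at -1.18 in the double knockout over the knockout.

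Against wild type the double knockout values lay closer for each of the 4 genes. The wild type libraries are shared with the comparisons of the untreated lines. The log2 fold change of Cubn was 0.52 (SE 0.1), or 1.44-fold, and that of Lrp2 was -0.17 (SE 0.06). Amn stood at -0.16 (SE 0.15) and Dab2 at -0.24 (SE 0.11) on the same scale. The groups did not overlap for Lrp2, Cubn and Dab2, or 3 of the 4 genes, nor for 57.1% of all genes. With scaling to the library total alone the Lrp2 value was -0.08.

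The balance of the receptor pair was compared per length, with the deposited size-factor-adjusted RPKM (nRPKM). Lrp2 averaged 13.2 nRPKM and Cubn 0.0997 nRPKM in the knockout. The ratio of Lrp2 to Cubn was 99.1, 130.7 and 198.4 in the 3 knockout libraries, ordered by size, and averaged 142.7 ± 50.8, against 43.8 ± 9.4 in the untreated knockout line (SD, n = 3 each). It averaged 73.7 ± 13.4 in the C91A mutant, against 12.6 ± 0.363 in the untreated C91A line. In the double knockout it averaged 2.79 ± 0.151, with Lrp2 at 5.84 nRPKM and Cubn at 2.1 nRPKM, against 4.5 ± 0.352 in wild type. Megalin transcript was thus above cubilin transcript in every library, by the widest margin in the knockout and the narrowest in the double knockout. Amnionless, by the same scale, averaged 1.96 nRPKM in the knockout and 3.08 nRPKM in the double knockout, against 3.45 nRPKM in wild type. Amn transcript thus stood above Cubn transcript in all 6 group means.

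**Figure D3:**
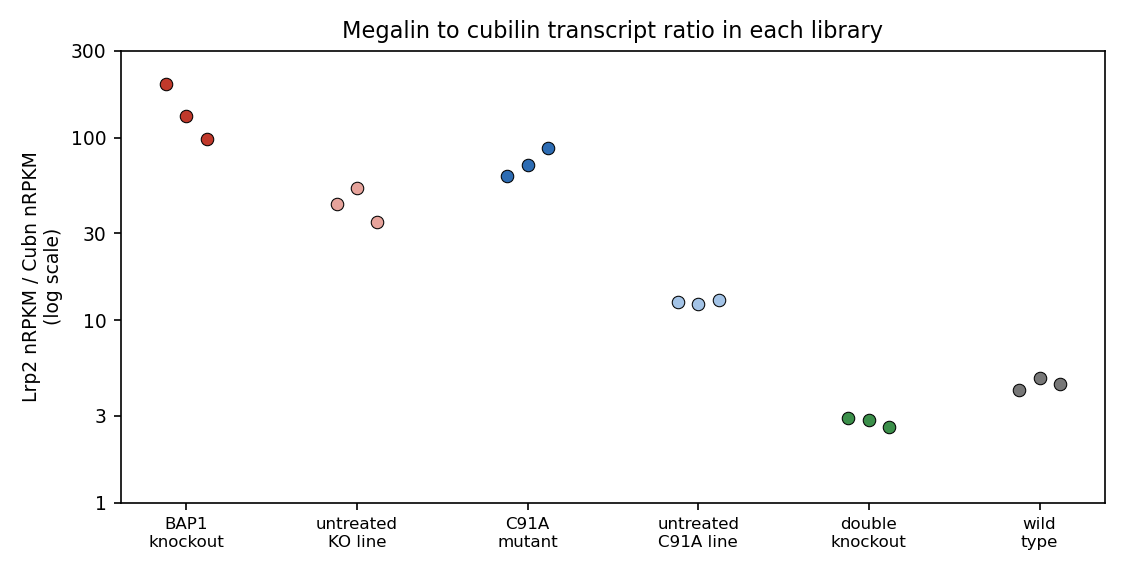
Ratio of Lrp2 to Cubn nRPKM (vertical axis, log scale) in the 3 libraries of each group (points). The ratio is highest in the BAP1 knockout, at 99.1 to 198.4, and averages 2.79 in the double knockout and 4.5 in wild type.

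Most partners and adaptors of these receptors rose in both treated lines, and in the double knockout most fell relative to the knockout. Of 21 such genes, all tested, 15 rose and 2 fell in the knockout, with a median log2 fold change of 0.34, where the median of all genes was -0.01 and 31.3% of genes rose and 30.3% fell. Here "rose" and "fell" mean past an adjusted p of 0.05 in edgeR's quasi-likelihood test. In the C91A mutant 13 rose and the other 8 did not pass, with a median of 0.23, where 28.6% of all genes rose and 26.4% fell. Relative to the knockout, 4 rose and 14 fell in the double knockout, with a median of -0.35, where the median of all genes was 0.03 and 32.6% of genes rose and 30.6% fell. The last comparison shares the knockout libraries with the first. Clcn5, the chloride and proton exchanger of early endosomes whose loss blocks uptake by megalin in the kidney, rose in the knockout, to 117.6 ± 4.29 CPM, against 51.4 ± 3.12 CPM in the untreated line (log2 1.19, edgeR adjusted p = 4.2e-18). On the log2 scale it rose by 1.07 in the C91A mutant and fell by 1.09 in the double knockout relative to the knockout. Dab1, a relative of Dab2, rose by 1.12 (log2) in the knockout and by 0.5 in the C91A mutant, and Sh3kbp1, an endocytic scaffold, rose by 0.98 (log2) in the knockout.

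A chaperone and a scaffold were followed as named partners of megalin. Lrpap1, the chaperone that keeps ligands off megalin in the secretory pathway, rose by 0.21 (log2) in the knockout (edgeR adjusted p = 0.00049), 0.45 in the C91A mutant and 0.49 in the double knockout against the knockout. Its rise in the knockout was lost with scaling to the library total alone (0.05, edgeR adjusted p = 0.36). Gipc1, a scaffold that binds the megalin tail, stood at -0.01 (log2) in the knockout (edgeR adjusted p = 0.85) and at 0.11 in the C91A mutant (edgeR adjusted p = 0.11). The Gipc1 value in the knockout passed as -0.17 with scaling to the library total alone (edgeR adjusted p = 0.015), and that in the C91A mutant passed as 0.15 without C91A mutant replicate 1 (edgeR adjusted p = 0.041).

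Most endosome and recycling genes, which return receptors to the surface or send cargo to lysosomes, also rose in both treated lines. Of 25 genes, 19 rose and 1 fell in the knockout (median log2 0.36), and 21 rose and 1 fell in the C91A mutant (median 0.33). With scaling to the library total alone 4 fell in the knockout and 3 in the C91A mutant. In the double knockout against the knockout 2 rose and 17 fell (median -0.31), or 5 and 9 with scaling to the library total alone. Across all genes 31.3% rose and 30.3% fell in the knockout, 28.6% and 26.4% in the C91A mutant. Against the knockout, 32.6% rose and 30.6% fell in the double knockout. Lamp1, a lysosomal membrane protein, averaged 1437 ± 9.38 CPM in the knockout, against 764.0 ± 8.51 CPM in the untreated line, and its log2 fold change was 0.91 (edgeR adjusted p = 3.8e-24). Atp6v1a, a subunit of the proton pump that acidifies endosomes, rose by 0.86 (log2), and Stam, which sorts ubiquitin-tagged cargo, rose by 0.84. In the C91A mutant Rab11fip5, a partner of the recycling GTPase Rab11, rose by 0.96 (log2), Stam by 0.8 and Rab11a by 0.63. In the double knockout against the knockout Lamp1 fell by 0.94 (log2), Atp6v1a fell by 0.9 and Lamp2 fell by 0.76.

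**Figure D4:**
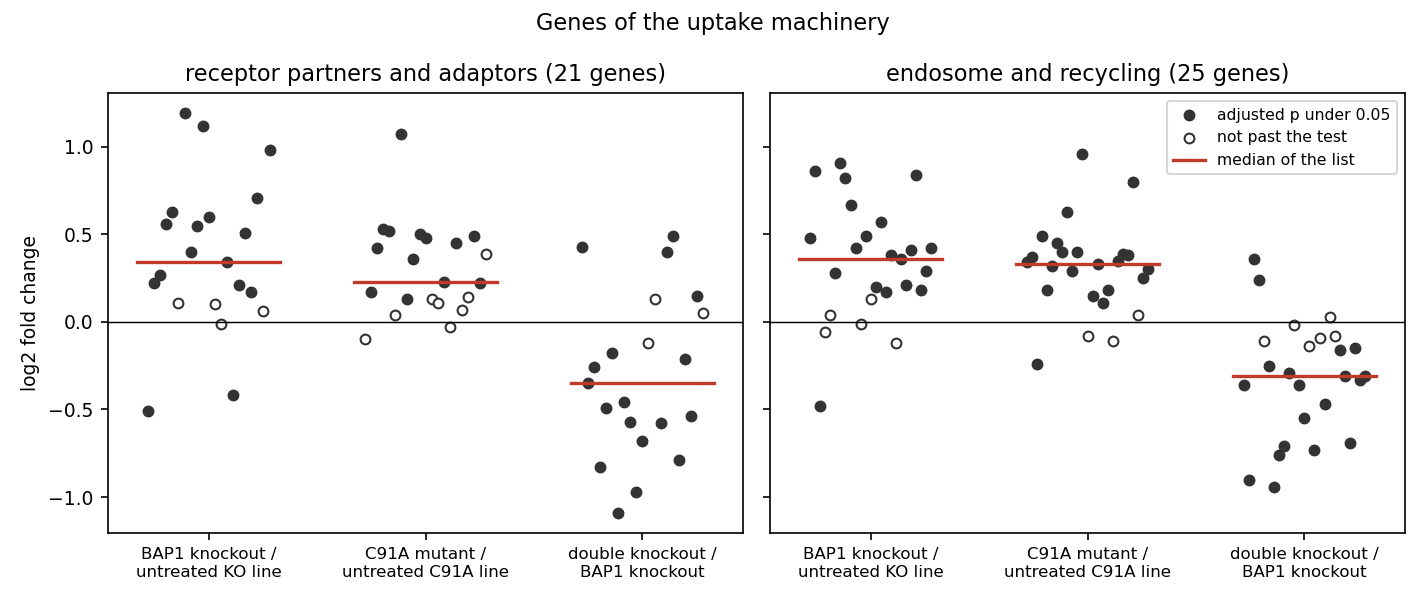
Log2 fold change (vertical axis) of 21 receptor partners and adaptors (left) and 25 endosome and recycling genes (right) in 3 comparisons (horizontal axis). Filled points passed at adjusted p under 0.05, open points did not, and the red line is the median, at 0.34 and 0.36 in the knockout and at -0.35 and -0.31 in the double knockout against the knockout.

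Other receptors of the LDL receptor family moved both ways in the knockout, in numbers near the shares of all genes. Among all genes 31.3% rose and 30.3% fell in the knockout, and 28.6% and 26.4% in the C91A mutant. In the double knockout against the knockout these shares were 32.6% and 30.6%. Of 14 tested of 15 listed, 4 rose and 4 fell in the knockout (median log2 0.0), and 8 rose and 2 fell in the C91A mutant (median 0.17). In the double knockout against the knockout 5 rose and 5 fell (median -0.04). That split was 8 and 3 with scaling to the library total alone, and 3 rose with DESeq2, at equal depth, or without knockout replicate 3, double knockout replicate 2 or double knockout replicate 3. In the knockout 7 fell with scaling to the library total alone. Ldlrad4, which bears an LDL receptor class A domain, rose by 1.16 (log2) in the knockout and 1.34 in the C91A mutant, and Vldlr, the VLDL receptor, rose by 0.97 and 1.09. Lrp11 fell by 0.92 (log2) in the knockout and fell by 0.86 in the C91A mutant.

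Ligands that these receptors carry moved both ways. For comparison, 31.3% of all genes rose and 30.3% fell in the knockout, and 28.6% and 26.4% in the C91A mutant. The double knockout relative to the knockout had 32.6% and 30.6%. Of 16 tested of 22 listed, 8 rose and 4 fell in the knockout (median log2 0.2), 9 rose and 4 fell in the C91A mutant (median 0.4), and 8 rose and 5 fell in the double knockout relative to the knockout (median 0.91). Lpl, lipoprotein lipase, rose by 2.02 (log2) in the knockout and fell by 2.51 in the double knockout relative to the knockout. Bmp4, a growth factor that megalin binds, fell by 1.96 (log2) in the knockout and rose by 1.95 in the double knockout against the knockout. Trf, transferrin, a ligand of cubilin, fell by 1.32 (log2) in the knockout and fell by 1.19 in the C91A mutant. It rose by 0.9 in the double knockout relative to the knockout, and stood at -0.74 there against wild type.

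Genes of the cell type in which the complex is best known gave mixed counts. Of 14 visceral endoderm genes tested of 22 listed, 4 rose and 5 fell in the knockout (median log2 0.08), 4 rose and 4 fell in the C91A mutant (median 0.13), and 8 rose and 3 fell in the double knockout relative to the knockout (median 0.71). At equal depth the knockout counts were 2 and 3. Over all genes 31.3% rose and 30.3% fell in the knockout, 28.6% and 26.4% in the C91A mutant. Relative to the knockout, 32.6% rose and 30.6% fell in the double knockout. Slc39a4, a zinc transporter, fell by 1.23 (log2) in the knockout, and Amot, angiomotin, rose by 0.87. Summed over the list, these genes lay between 455.4 and 470.2 CPM in the knockout, against 548.5 to 566.7 CPM in its untreated line. They lay between 730.2 and 755.6 CPM in the C91A mutant, against 566.0 to 595.3 CPM in its untreated line. They lay between 311.2 and 370.3 CPM in the double knockout, against 698.9 to 740.5 CPM in wild type. Cldn6 and Lefty1 made up most of these sums. Without them, a choice made after the values were seen, the rest lay between 89.5 and 92.4 CPM in the knockout, against 125.0 to 133.6 CPM in its untreated line, and between 118.4 and 123.9 CPM in the double knockout, against 167.3 to 184.4 CPM in wild type. In the C91A mutant the rest lay between 185.3 and 190.1 CPM, against 157.3 to 164.7 CPM in its untreated line. Single genes, picked after their values were seen, weighed heavily in the rest. Amot gained most CPM in the C91A mutant, at 75.9 CPM, against 28.9 CPM in its untreated line. The 4 genes that fell there, Trf, Slc39a4, Rbp4 and Apoc2, all belong to the rest. In the knockout Slc39a4 lost most, at 28.6 CPM, against 67.9 CPM in its untreated line, while Amot gained.

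Most primitive and parietal endoderm genes, of the lineage next to visceral endoderm in which Dab2 is also known, rose in each of these comparisons. Of 19 genes, all tested, 12 rose and 2 fell in the knockout (median log2 0.62), 11 rose and 1 fell in the C91A mutant (median 0.67), and 15 rose and 2 fell in the double knockout relative to the knockout (median 0.82). The shares of all genes that rose and fell were 31.3% and 30.3% in the knockout and 28.6% and 26.4% in the C91A mutant. They were 32.6% and 30.6% in the double knockout relative to the knockout. Against wild type, 1 gene passed as higher and 17 as lower in the untreated knockout line (median -1.4). In the untreated C91A line 2 were higher and 10 lower (median -0.31), and in the double knockout 6 and 6 (median 0.1). Loss of RNF2 and differences between lines cannot be told apart here either. Fst, follistatin, rose by 2.29 (log2) in the knockout, and the basement membrane collagens Col4a2 and Col4a1 rose by 1.14 and 1.08. In the untreated knockout line Col4a2 and Col4a1 stood at -2.08 and -2.28 (log2) against wild type. Gata4, a regulator of primitive endoderm, averaged 23.0 ± 1.7 CPM in the double knockout, against 7.67 ± 0.796 CPM in the knockout (log2 1.58, edgeR adjusted p = 1.3e-15). Gata6, a second such regulator chosen after its values were seen, averaged 8.42 ± 0.563 CPM in the double knockout, against 2.23 ± 0.113 CPM in the knockout (log2 1.91, edgeR adjusted p = 1.4e-11).

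Markers of other cell types moved with the same groups, and their part in the results above was not tested. Beside the counts below, 31.3% of all genes rose and 30.3% fell in the knockout, and 28.6% and 26.4% in the C91A mutant. For the double knockout relative to the knockout the shares were 32.6% and 30.6%. Of 14 pluripotency genes, 2 rose and 10 fell in the knockout, 1 rose and 12 fell in the C91A mutant, and 8 rose and 3 fell in the double knockout relative to the knockout. Of 11 neuroectoderm genes tested of 12 listed, 7 rose and 1 fell in the knockout, with the sum at 169.4 to 180.0 CPM, against 106.2 to 112.6 CPM in the untreated line, and 4 rose without knockout replicate 3. In the C91A mutant 3 rose and 1 fell, and in the double knockout relative to the knockout 5 rose and 3 fell. Their sum was 175.8 to 185.7 CPM in the C91A mutant, against 116.0 to 128.1 CPM in its untreated line. In the double knockout it was 128.8 to 142.2 CPM, below the knockout and against 110.5 to 119.6 CPM in wild type. Nes and Ncam1, chosen after their values were seen, gained most CPM in the knockout. Nes averaged 51.4 CPM there, against 26.7 CPM in the untreated line, and Ncam1 54.3 CPM, against 20.0 CPM. In the C91A mutant Nes gained most, at 93.5 CPM, against 41.6 CPM in its untreated line, and the 1 that fell was Sox1. Of 10 fibroblast genes tested of 12 listed, 5 rose and the other 5 did not pass in the knockout, with the sum at 102.4 to 109.9 CPM, against 38.1 to 38.8 CPM in the untreated line. In the C91A mutant 7 rose and 1 fell, and in the double knockout relative to the knockout 5 rose and 1 fell, or 8 rose with scaling to the library total alone. Their sum was 175.7 to 188.2 CPM in the C91A mutant, against 46.2 to 46.5 CPM in its untreated line, and 143.8 to 147.2 CPM in the double knockout, against 59.7 to 61.8 CPM in wild type. Acta2, chosen after its values were seen, was the largest part of these sums in the treated groups. It averaged 44.9 CPM in the knockout, against 4.81 CPM in its untreated line. In the C91A mutant Acta2 averaged 96.9 CPM, against 9.28 CPM in its untreated line, and in the double knockout 49.0 CPM, against 6.79 CPM in wild type. The 1 that fell in the C91A mutant was Thy1. Of 11 trophoblast genes tested of 13 listed, 4 rose and 4 fell in the knockout, with the sum at 492.5 to 502.5 CPM, against 317.4 to 339.3 CPM in the untreated line. In the C91A mutant 5 rose and 4 fell, with the sum at 1346 to 1472 CPM, against 739.9 to 783.1 CPM in its untreated line. In the double knockout relative to the knockout 7 rose and 3 fell. The sum was 341.7 to 418.2 CPM in the double knockout, against 492.5 to 502.5 CPM in the knockout and 500.7 to 529.8 CPM in wild type. Most of these sums was keratin. Without Krt7, Krt8 and Krt18, again a choice made after the values were seen, the sum was 145.4 to 157.1 CPM in the knockout, against 141.0 to 148.9 CPM in its untreated line, and 192.7 to 203.5 CPM in the C91A mutant, against 206.1 to 214.6 CPM in its untreated line. It was 147.1 to 159.0 CPM in the double knockout, against 169.8 to 175.2 CPM in wild type. The 4 that fell in the C91A mutant were Eomes, Elf5, Ascl2 and Tfap2c, and the 5 that rose were Gata2, Gata3, Krt7, Krt8 and Krt18. Elf5 rests on few counts, at 0.106 CPM in the C91A mutant, against 0.992 CPM in its untreated line. Tfap2c was the largest part of the sum without keratins, at 111.0 CPM in the C91A mutant, against 127.4 CPM in its untreated line. The placental genes Tpbpa and Prl3d1 had 0 counts in all libraries.

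Across the 18 libraries the 4 genes did not share a single pattern. Pearson's r of log2 CPM, given as a description over libraries that share their 6 groups, was 0.78 for Cubn with Amn, 0.77 for Amn with Dab2, 0.54 for Cubn with Dab2 and 0.53 for Lrp2 with Dab2. It was 0.07 for Lrp2 with Amn and -0.34 for Lrp2 with Cubn. Among 11903 genes compared, the pattern most like that of Lrp2 was that of Kirrel, at r = 0.989. Kirrel, which codes for a cell adhesion protein of the kidney slit diaphragm, averaged 105.6 CPM in the knockout, against 41.4 CPM in its untreated line, and 151.2 CPM in the C91A mutant, against 49.1 CPM in its untreated line. It averaged 53.6 CPM in the double knockout, against 56.1 CPM in wild type. Usp22, Klf6, Pdlim5 and Cdk14 followed, at r of 0.981, 0.98, 0.977 and 0.977.

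For Cubn the nearest patterns were less close: Eif2s2 at r = 0.917, Mcph1 at 0.91, Neto2 at 0.895, Nqo1 at 0.89 and Lama1 at 0.886. Neto2, which like cubilin bears CUB domains, averaged 10.9 CPM in the double knockout, against 2.31 CPM in the knockout and 5.11 CPM in wild type. For Amn they were Adcy7 at 0.861, Timp2 at 0.854, Chmp1a at 0.82, Fgfr3 at 0.805 and Pmpca at 0.795. For Dab2 they were Col4a1 at 0.96, Pth1r at 0.936, Col4a2 at 0.93, Abcc8 at 0.917 and Lamb1 at 0.914. Of these, Col4a1, Col4a2, Pth1r and Lamb1 are on the list of primitive and parietal endoderm genes. Col4a1 averaged 186.3 CPM in the knockout, against 88.0 CPM in its untreated line, and 765.9 CPM in the C91A mutant, against 346.8 CPM in its untreated line.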

How the data were processed

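Polyadenylated RNA of 18 libraries was sequenced as single 50-base reads, per the labels' protocols; GSNAP, of a version not stated there, was the aligner and GRCm38 the build, per the submitters' processing notes. The deposited files give, per gene and library, a read count made by the authors. They also give the authors' size-factor-adjusted RPKM (nRPKM), which equalled the count times a gene factor and a library factor within a relative deviation of 3e-14 over 16471 genes. Groups came from the source names. Replicates carry no number and were numbered in order of accession. No library was left out. The members, lists and rules were chosen with earlier results of these data known. The double knockout comparisons had been planned as tests of the members, but are given as a description, since the levels that chose the members cover all 6 groups.

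Counts were fitted with edgeR 4.0.16 (R 4.3.3): filterByExpr, TMM scaling, 1 mean for each of 6 groups and quasi-likelihood tests, adjusted by the Benjamini-Hochberg method over 16875 genes with a threshold of 0.05. CPM was scaled by TMM. The SE is the absolute log2 fold change over the square root of the F statistic. The typical variation between replicates was 4.5%. The fit was tested on simulated data. Alternatives were DESeq2 1.42.0, DESeq2 size factors, no TMM scaling, no filter, only the groups compared, libraries thinned to 8.11 M (mega) counts and each library left out. Patterns alike were ranked by Pearson's r of log2 CPM with a prior count of 2. Named besides the members were, of each list described by gene, up to 3 called genes that changed most, given a mean log2 CPM of 2 or more, and Lrpap1 and Gipc1. The values of 1 further gene of the partner list are not reported here. Of the pluripotency, trophoblast, neuroectoderm and fibroblast lists counts and sums are given. For the trophoblast list the genes that passed in the C91A mutant are also named. A few genes of the neuroectoderm and fibroblast lists are named as well, chosen after their values were seen. Promoter sequences are RefSeq's (GRCm38.p6) and matched all 4 symbols. No protein sequences were used here. Intervals and floors of counts cover counting error only.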

Additional observations from a re-analysis of the deposited data

Results flagged for a closer look

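Listed uptake, ligand and endoderm genes with a log2 fold change given above were also tested for a difference between the knockout and C91A effects. The difference is the knockout effect minus the C91A effect (log2, edgeR's quasi-likelihood test, adjusted over 16875 genes, of which 25.9% passed). Of those genes 12 passed. Clcn5, Gipc1, Sh3kbp1, Stam, Rab11a, Ldlrad4, Vldlr, Lrp11, Trf, Col4a1, Col4a2 and Gata6 did not pass. Most of the genes tested were named because they changed most in a comparison described above. That choice can favour a difference between the effects, so nothing is read from the number that passed. None of the 4 receptor genes was tested here. Among partners and adaptors the difference was -0.25 for Lrpap1 (edgeR adjusted p = 0.0068) and 0.62 for Dab1 (edgeR adjusted p = 0.0019). That of Lrpap1 did not pass at equal depth (-0.19, edgeR adjusted p = 0.078).

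Among endosome and recycling genes it was 0.46 for Lamp1 (edgeR adjusted p = 2.4e-09), 0.49 for Atp6v1a (edgeR adjusted p = 1.6e-07), 0.42 for Lamp2 (edgeR adjusted p = 0.004) and -0.48 for Rab11fip5 (edgeR adjusted p = 0.00037). Among ligands it was 1.18 for Lpl (edgeR adjusted p = 8.6e-07) and -1.07 for Bmp4 (edgeR adjusted p = 1.8e-05).

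Among endoderm genes it was 0.88 for Fst (edgeR adjusted p = 0.003), 0.54 for Gata4 (edgeR adjusted p = 0.026), -1.1 for Slc39a4 (edgeR adjusted p = 1.2e-12) and -0.52 for Amot (edgeR adjusted p = 0.00026). Fst did not pass at equal depth (0.51, edgeR adjusted p = 0.24), nor did Gata4 (0.62, edgeR adjusted p = 0.068). Gata4 also did not pass without knockout replicate 1 (0.46, edgeR adjusted p = 0.087), untreated knockout line replicate 1 (0.49, edgeR adjusted p = 0.066), C91A mutant replicate 1 (0.46, edgeR adjusted p = 0.075) or untreated C91A line replicate 2 (0.51, edgeR adjusted p = 0.059).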

How the results depend on the processing

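Under 6 settings 160 values of the 4 receptor genes moved by less than the spread between replicates and 8 by more, and with 1 library left out these numbers were 186 and 6. Scaling to the library total alone gave 1.37 for Lrp2 and 0.71 for Dab2 in the knockout and 1.53 for Lrp2 in the C91A mutant, and -0.97 for Lrp2 and 0.84 for Dab2 in the double knockout against the knockout. It moved the median log2 fold change of all genes to -0.16 in the knockout, -0.108 in the C91A mutant and 0.237 in the double knockout against the knockout. Equal depth gave 0.33 for Cubn and 0.42 for Amn in the knockout, and 1.23 for the Cubn difference between the effects. Leaving out 1 library gave, in the knockout, -0.37 to 0.16 for Cubn and 0.72 to 1.05 for Dab2, and -1.92 to -1.59 for Dab2 in the untreated knockout line against wild type. It gave 4.13 to 4.66 for Cubn in the double knockout against the knockout, 0.54 to 1.08 for the Cubn and -0.34 to -0.01 for the Dab2 difference between the effects. The cause was not tested. Depth limits Cubn most, at 9 to 30 counts in the knockout and its untreated line. No paired analysis was possible because replicates carry no numbers in the labels.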
